A study of Rattus norvegicus with 24 samples.

Results

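Solute carriers are the largest family of membrane transport proteins, and the gene symbols of the family begin with Slc followed by a family number. They move amino acids, sugars, nucleosides, ions, metals and vitamins across the outer membrane of the cell and across the membranes of mitochondria, the Golgi apparatus and vesicles. Members were the probes with a single gene symbol of this form, other than Slc25a20. This gave 195 of the 10399 probes on the array, for 168 of the 6455 genes that a probe named alone, in 45 families. A log2 level in at least 3 animals of each group was available for 192 of these probes and 165 genes, and the single probes of Slc12a7, Slc22a8 and Slc4a3 were not tested. For description the genes were placed in 18 classes by what their family carries, among them a class of 2 genes (Slc4a1ap and Slc7a6os) that are named after a carrier but are not carriers.

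The RNA came from mesenteric arteries, the small arteries that supply the gut, of female Sprague Dawley rats. Every rat, controls included, had its ovaries removed at 3 weeks of age, recovered for 2 weeks and was 5.5 weeks old at the end. The 3 groups of 4 rats received intraperitoneal injections for 4 days of vehicle (sesame oil), estradiol benzoate (an ester of the main estrogen) at 0.15 mg per kg per day, or testosterone (the main androgen and itself a precursor of estradiol) at 1 mg per kg per day. Each animal was measured on 2 one-colour CodeLink arrays of the same cRNA, whose mean log2 intensity is the level used throughout. Animals are called by their number in the labels, and values are always listed in the order vehicle 3, 4, 5 and 8, estradiol benzoate 2, 3, 5 and 8, and testosterone 2, 4, 6 and 8. The question was how the hormones, given to rats without ovaries, alter gene expression in these arteries.

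Markers of the vessel wall were present: the endothelial gene Pecam1 had a mean log2 level of 4.88 and the smooth muscle gene Cnn1 one of 5.11, with 6 of 8 endothelial and 4 of 10 smooth muscle markers measured. Markers of neighbouring tissue were measured too. The summed intensity of 11 measured of 22 hepatocyte markers was 44.7 in vehicle animal 5. It was 8.43, 5.64 and 2.72 in vehicle animals 3, 4 and 8, 3.16 to 4.51 with estradiol benzoate and 2.4 to 3.71 with testosterone. Their mean log2 deviation from the 12-animal mean was -0.35 to 2.95 in vehicle, -0.71 to -0.13 in estradiol benzoate and -0.92 to -0.53 in testosterone animals. On this measure testosterone did not overlap vehicle, with or without vehicle animal 5. The sum of 11 measured of 18 pancreas markers was 121 in estradiol benzoate animal 3, against 0.731 to 6.03 in the others. The sum of 12 measured of 20 white adipocyte markers was 130 to 146 in vehicle, 162 to 173 in estradiol benzoate and 141 to 175 in testosterone animals, so that the first and second of these groups did not overlap. With estradiol benzoate 10 of the 12 had a higher mean log2 level than in vehicle, among them Fasn (4.99 against 4.16) and Acaca (4.53 against 3.81). Adipoq (4.60 against 4.68) and Pck1 (4.20 against 4.55) were lower, so the sum does not stand for every marker. The sum of 4 measured of 6 brown adipocyte markers (Ucp1, Cidea, Cpt1b and Ppargc1a) was 3.72 to 4.5 in vehicle, 5.08 to 6.27 in estradiol benzoate and 4 to 5.49 in testosterone animals. Here too estradiol benzoate did not overlap vehicle. That of 4 measured of 6 kidney and adrenal markers, whose kidney genes Umod and Aqp2 were dim (mean log2 levels -6.76 and -4.22), was 2.14 to 2.8, 2.46 to 3.58 and 2.6 to 3.09. Where a list is said to move with a gene, r is Pearson's over the 12 animals between the gene's level and the list's mean log2 deviation, as a description. Not every r is given, so a gene named without one is not shown to be free of other tissue. In such bulk samples, fewer cells of a type and less RNA per cell cannot be told apart.

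No Slc probe passed an adjusted p of 0.05 in limma's test in any of the 3 comparisons or in the F test over the groups. For estradiol benzoate minus vehicle the share of all 10228 tested probes that passed was 0%, for testosterone minus vehicle 0.0489%, for estradiol benzoate minus testosterone 0.0293% and for the F test 0.00978%. At an unadjusted p under 0.05, 29 of 192 Slc probes differed between estradiol benzoate and vehicle (background 13.5%), 17 higher (background 6.77%) and 12 lower (background 6.69%). Between testosterone and vehicle 30 did (background 14%), 21 higher (background 6.62%) and 9 lower (background 7.43%). Between estradiol benzoate and testosterone 15 did (background 4.13%), 8 higher (background 2.41%) and 7 lower (background 1.71%), and in the F test 33 did (background 11.9%). Against vehicle the shares of Slc probes in both directions together, 15.1% and 15.6%, lie near the background. Farther from it were 10.9% higher and 4.69% lower with testosterone, 7.81% between the hormones and 17.2% in the F test. These gaps were not tested. The values that follow describe single genes that did not pass the test.

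Groups that do not overlap, with every animal of one above every animal of the other, were seen for 17 probes between estradiol benzoate and vehicle (background 7.82%), 7 of them higher (background 3.53%) and 10 lower (background 4.29%). Between testosterone and vehicle they were seen for 12 (background 5.59%), 9 higher (background 2.45%) and 3 lower (background 3.14%), and between estradiol benzoate and testosterone for 10 (background 3.05%), 3 higher (background 1.88%) and 7 lower (background 1.17%). The smallest p that an exact two-sided permutation test of 4 against 4 animals allows is 0.0286. The sign was higher than vehicle for 108 of 192 Slc probes with estradiol benzoate (background 47.6%) and for 117 with testosterone (background 47.7%), and 90 were higher with estradiol benzoate than with testosterone (background 48.5%). Both comparisons with vehicle share the vehicle animals. Over the 165 genes the median log2 difference from vehicle was 0.05 with estradiol benzoate and 0.07 with testosterone, against -0.01 over all tested probes in each.

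**Figure D1:**
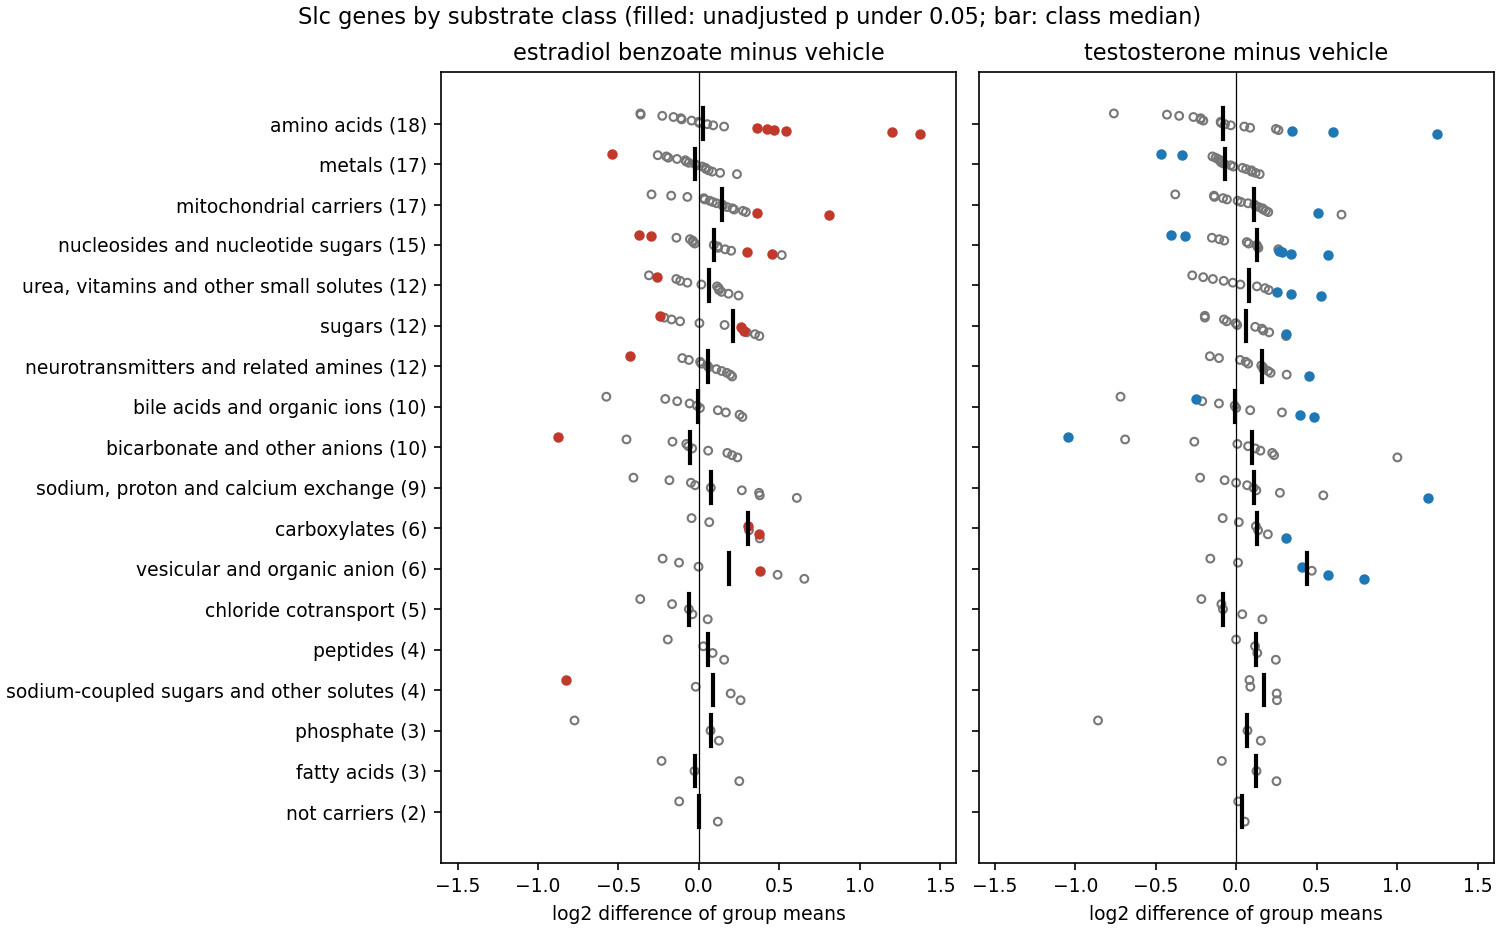
Log2 difference of the group means from vehicle for each of 165 Slc genes, by substrate class with the number of genes in brackets; each point is a gene, filled points have an unadjusted p under 0.05 and bars are class medians. Most points lie within 0.5 of 0, and the amino acid class holds 6 filled points above 0 with estradiol benzoate and 3 with testosterone.

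Amino acid carriers supply cells with building blocks and with precursors such as arginine for nitric oxide. Of 18 genes, 6 were higher than vehicle at an unadjusted p under 0.05 with estradiol benzoate (background 6.77%) and none lower (background 6.69%), and 3 were higher with testosterone (background 6.62%), with class medians of 0.03 and -0.08. The 6 were Slc38a1, Slc7a5, Slc7a7, Slc7a3, Slc1a5 and Slc1a6, of which the last was singled out after its values were seen. Slc1a6, a glutamate transporter, was dim, with log2 levels from -9.18 to -5.04, and gave 1.37 with estradiol benzoate and 1.25 with testosterone, with overlapping groups. It moved against the hepatocyte markers (r = -0.809), whose part was not tested.

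Slc38a1, a sodium-coupled carrier of glutamine and other small neutral amino acids, had the smallest p of all members. The log2 levels of its brightest probe were -3.04, -2.93, -2.56 and -2.77 in vehicle, -2.0, -1.36, -1.81 and -1.35 in estradiol benzoate, and -3.11, -2.54, -2.18 and -2.48 in testosterone animals. All 4 estradiol benzoate animals lay above all other animals, and the vehicle and testosterone animals overlapped. The difference from vehicle was 1.2 ± 0.21 (SE) on the log2 scale (adjusted p = 0.122) and that from testosterone 0.95 ± 0.21 (adjusted p = 0.293), while testosterone minus vehicle was 0.25 ± 0.21. Its other probes, which were dimmer, gave 0.57 and 0.40 for estradiol benzoate minus vehicle, with overlapping groups. Without estradiol benzoate animal 3 and vehicle animal 5 the brightest probe gave 1.2 and the others 0.46 and 0.19. Slc38a1 moved with the pancreas (r = 0.754), brown adipocyte (0.719) and kidney and adrenal markers (0.714). Leaving out estradiol benzoate animal 3 does not remove the pancreas markers, whose sum was 6.03 in estradiol benzoate animal 8 and 2.8 in testosterone animal 6. The part of the pancreas, of the brown adipocyte and of the kidney and adrenal markers in the difference was not tested.

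Over the 12 animals the genes whose levels followed Slc38a1 most closely were Lgals3 (Pearson r = 0.947), Sult1a1 (0.942), Dhrs7 (0.931), Akr1c14 (0.929) and Aff3 (0.912). Among Slc genes they were Slc16a6 (0.77), Slc25a33 (0.757), Slc37a4 (0.73), Slc25a5 (0.67) and Slc25a30 (0.64). These are descriptions, and the points share the group differences. After the group means were removed, r was 0.773 for Lgals3 and from 0.612 (Aff3) to 0.832 (Dhrs7) over the first 5 genes. Among the Slc genes it was then 0.541 for Slc16a6, 0.474 for Slc25a33, 0.346 for Slc37a4, 0.809 for Slc25a5 and 0.418 for Slc25a30, so their order changed.

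Slc7a5 forms, with Slc3a2, the exchanger for large neutral amino acids such as leucine. Its log2 levels were -2.10, -2.04, -2.02 and -1.99 in vehicle, -1.45, -1.55, -1.48 and -1.80 in estradiol benzoate and -1.57, -2.11, -1.40 and -1.69 in testosterone animals. The estradiol benzoate animals all lay above vehicle, while testosterone animal 4 lay below every vehicle animal. The differences from vehicle were 0.47 ± 0.14 (adjusted p = 0.232) and 0.34 ± 0.14 (adjusted p = 0.321). Its partner Slc3a2 gave 0.05 and -0.09. Slc1a5, a neutral amino acid exchanger that carries glutamine, gave 0.54 and 0.60, and Slc7a7, a subunit of an exchanger of cationic and neutral amino acids, 0.36 and 0.26. The white adipocyte markers moved with both Slc7a5 and Slc1a5 over the 12 animals (r = 0.832 and 0.842 with the mean deviation of the list), and their part in these differences was not tested. Slc7a7 moved with 6 measured of 14 lymphocyte markers (r = 0.755), whose part was not tested either. All of these but Ptprc were dim, with mean log2 levels of -2.35 or below. Slc38a2, a relative of Slc38a1 with a like substrate range, gave -0.05 and -0.03, and Slc7a1, a cationic amino acid carrier, -0.00 and -0.22.

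Slc7a3 carries arginine and other cationic amino acids. Its log2 levels were -2.19, -2.61, -2.83 and -2.17 in vehicle, -2.35, -1.85, -2.14 and -1.77 in estradiol benzoate, and -2.77, -2.49, -2.90 and -2.53 in testosterone animals. Every estradiol benzoate animal lay above every testosterone animal, and the vehicle animals overlapped both. The hormones differed by 0.64 ± 0.18 (adjusted p = 0.589), and a second, dimmer probe gave 0.68. Against vehicle the probes disagreed: estradiol benzoate minus vehicle was 0.42 on one and -0.12 on the other. Slc1a2, a glutamate carrier, differed by 0.85 between the hormones on its brighter probe, at levels from -7.59 to -5.38, and by -0.22, the opposite sign, on its other probe. The 0.85 became 0.07 on the scale of log2(value + 0.1), and 1.32 without testosterone animal 4.

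**Figure D2:**
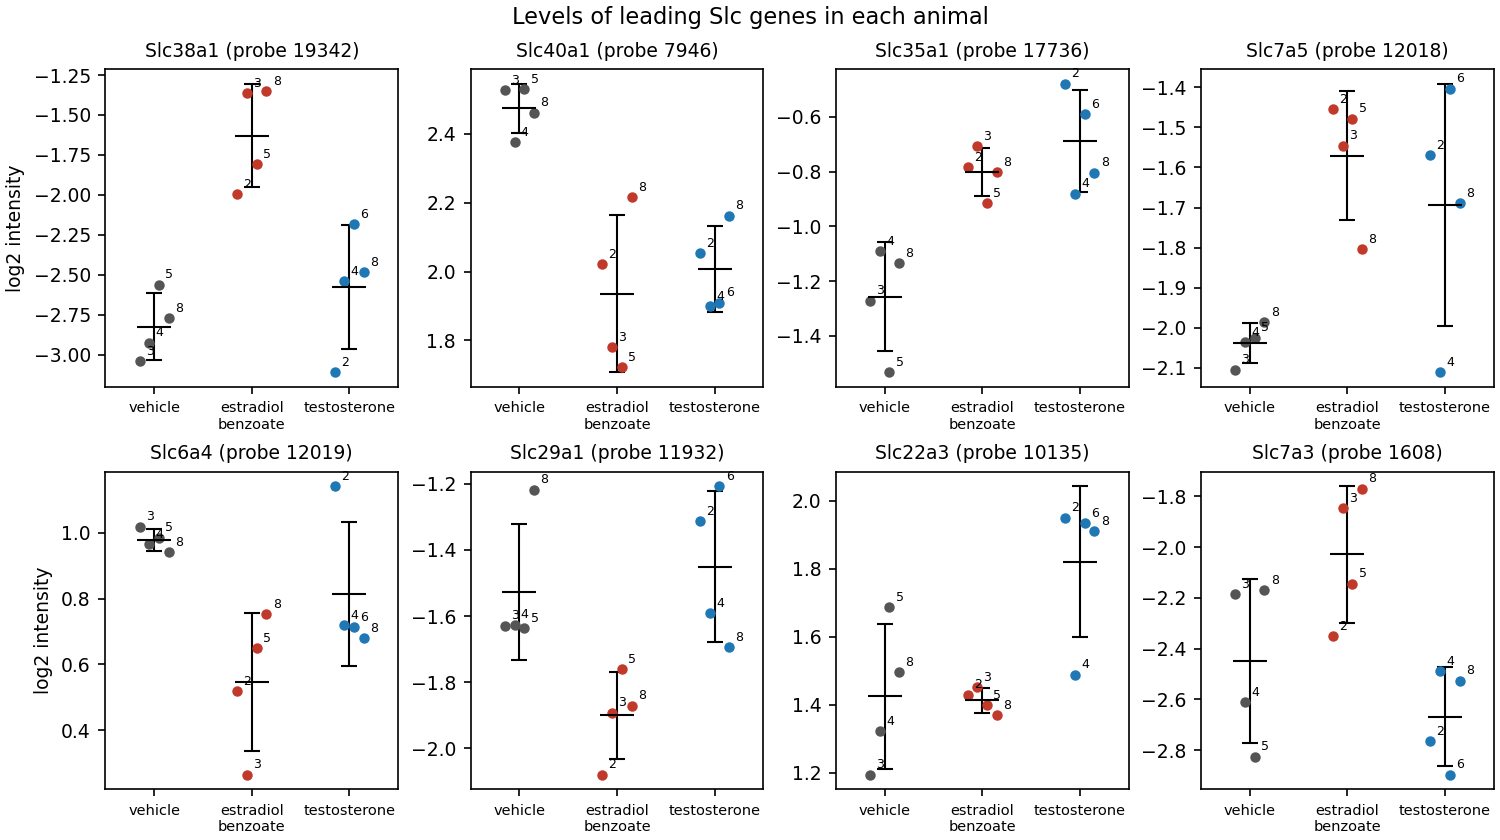
Log2 intensity of 8 Slc genes in each of 12 animals, with the animal's number beside its point; horizontal bars are group means, error bars are the SD over 4 animals, and each panel has its own scale. For Slc38a1 the estradiol benzoate animals lie apart from both other groups, and for Slc40a1 and Slc35a1 the vehicle animals do.

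Metal carriers take up, export and store iron, zinc, copper and manganese. Of 17 genes, 1 was lower than vehicle at an unadjusted p under 0.05 with estradiol benzoate (background 6.69%) and 2 with testosterone (background 7.43%), none was higher (background 6.77% and 6.62%), and the class medians were -0.02 and -0.07. Slc40a1 encodes ferroportin, the iron exporter of cells, well known from macrophages, gut and liver. Its brighter probe read 2.53, 2.38, 2.53 and 2.46 in vehicle, 2.02, 1.78, 1.72 and 2.22 in estradiol benzoate and 2.05, 1.90, 1.91 and 2.16 in testosterone animals. All vehicle animals lay above all treated animals, and the hormone groups overlapped. The differences from vehicle were -0.54 ± 0.11 (adjusted p = 0.129) and -0.47 ± 0.11 (adjusted p = 0.187). The second probe gave -0.33 and -0.34. Slc40a1 moved against the lymphocyte markers, 6 of 14 measured (r = -0.875 over the 12 animals). Their mean log2 deviation was -0.63 to -0.15 in vehicle, 0.09 to 0.35 in estradiol benzoate and 0.02 to 0.33 in testosterone animals. Their summed intensities, 1.09 to 1.39, 1.22 to 1.52 and 1.05 to 1.54 in that order, overlapped. The brightest of them, Ptprc, had group means of -0.10, -0.01 and -0.09. The other lymphocyte markers were dim, with mean log2 levels of -2.35 or below. Slc40a1 also moved against the white adipocyte markers (r = -0.722) and with the hepatocyte markers (0.655). The part of these lists in the difference was not tested. Slc39a8, an importer of zinc and manganese, was -0.34 against vehicle with testosterone and 0.04 with estradiol benzoate. Slc11a2, the importer of ferrous iron, gave 0.02 and 0.04 on its brighter probe and 0.32 and 0.27 on the other.

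Nucleosides enter cells through Slc28 and Slc29 carriers, and Slc35 carriers bring activated sugars into the Golgi apparatus and endoplasmic reticulum. Of 15 genes, 2 were higher (background 6.77%) and 2 lower (background 6.69%) than vehicle with estradiol benzoate at an unadjusted p under 0.05, and 4 higher (background 6.62%) and 2 lower (background 7.43%) with testosterone, with class medians of 0.09 and 0.13. Slc35a1 brings activated sialic acid into the Golgi apparatus for the ends of sugar chains on proteins and lipids. Its log2 levels were -1.27, -1.09, -1.53 and -1.13 in vehicle, -0.78, -0.71, -0.92 and -0.80 in estradiol benzoate, and -0.48, -0.88, -0.59 and -0.80 in testosterone animals. Every treated animal lay above every vehicle animal, and the hormone groups overlapped. The differences were 0.46 ± 0.12 (adjusted p = 0.192) and 0.57 ± 0.12 (adjusted p = 0.136), and without vehicle animal 5 they were 0.36 and 0.48. Slc35a1 moved with the white adipocyte markers (r = 0.875) and against the hepatocyte markers (-0.823), and their part was not tested.

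Slc35c1, the carrier of activated fucose, was higher than vehicle by 0.30 ± 0.09 with estradiol benzoate (adjusted p = 0.247), with groups that did not overlap, and by 0.13 with testosterone. Slc35f5 gave -0.30 and -0.32, and Slc35b2, the carrier of activated sulfate, 0.29 with testosterone; both were named after their values were seen. Slc29a1 is the main equilibrative nucleoside carrier, which takes up adenosine, a dilator of vessels. Its log2 levels were -1.63, -1.63, -1.64 and -1.22 in vehicle, -2.08, -1.89, -1.76 and -1.87 in estradiol benzoate and -1.31, -1.59, -1.21 and -1.69 in testosterone animals. The estradiol benzoate animals lay below all others. The difference was -0.37 ± 0.14 from vehicle (adjusted p = 0.304) and -0.45 ± 0.14 from testosterone (adjusted p = 0.695). Slc29a1 moved against the kidney and adrenal markers (r = -0.877), whose part was not tested. Slc28a2, a sodium-coupled carrier of purine nucleosides, gave -0.41 with testosterone and -0.14 with estradiol benzoate, while Slc28a1, which prefers pyrimidine nucleosides and was named after its values were seen, gave 0.34 with testosterone. Slc29a2, a relative of Slc29a1, gave 0.16 and 0.26.

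Carriers of organic cations and amines clear transmitters from the vessel wall. Slc6a4 is the serotonin transporter. Its brighter probe read 1.02, 0.97, 0.98 and 0.94 in vehicle, 0.52, 0.27, 0.65 and 0.75 in estradiol benzoate, and 1.14, 0.72, 0.71 and 0.68 in testosterone animals. The estradiol benzoate animals all lay below vehicle on this probe, and testosterone animal 2 lay above every other animal. The difference from vehicle was -0.43 ± 0.13 with estradiol benzoate (adjusted p = 0.226) and -0.16 with testosterone. The second probe, which was dimmer, gave -0.36 with estradiol benzoate, again with groups that did not overlap, and 0.09 with testosterone. Slc6a4, too, moved against the kidney and adrenal markers (r = -0.818), whose part was not tested. Slc6a2, the noradrenaline transporter of sympathetic nerves, gave 0.14 and 0.20 on its brighter probe and -0.01 and 0.53 on the other. Slc6a15, a neutral amino acid carrier of the same family, gave 0.21 and 0.45, and moved against the hepatocyte markers (r = -0.771), whose part was not tested.

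Slc22a3 takes up amines outside nerve endings. Its brighter probe read 1.19, 1.32, 1.69 and 1.5 in vehicle, 1.43, 1.45, 1.40 and 1.37 in estradiol benzoate and 1.95, 1.49, 1.94 and 1.91 in testosterone animals. The testosterone animals lay above all estradiol benzoate animals and, but for animal 4, above vehicle. Testosterone minus vehicle was 0.40 ± 0.13 (adjusted p = 0.259) and estradiol benzoate minus testosterone -0.41 ± 0.13 (adjusted p = 0.756). The second probe gave 0.15 and -0.41. Slc22a5, the carnitine transporter, gave 0.48 with testosterone and 0.25 with estradiol benzoate. Slc22a2, a further cation carrier, differed by 0.48 between the hormones, with estradiol benzoate animal 8 at -0.15 and all other animals at -0.86 or below, and by 0.27 without that animal.

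Slc10a1 encodes the sodium-coupled bile acid carrier of hepatocytes, and its probes disagreed. One read between -0.92 and -0.39 in all 12 animals, with differences from vehicle of 0.01 and -0.01. The other read -1.69, -2.25, 1.29 and -3.84 in vehicle, -4.11, -3.66, -3.66 and -3.89 in estradiol benzoate and -4.10, -3.62, -4.21 and -4.28 in testosterone animals. On this probe vehicle animal 5 was far above all others, vehicle animals 3 and 4 came next, and vehicle animal 8 lay within the range of the treated animals. The differences were -2.21 ± 0.79 (adjusted p = 0.295) and -2.43 ± 0.79 (adjusted p = 0.263), and without vehicle animal 5 they were -1.23 and -1.45. The hepatocyte markers followed the same order in the vehicle animals, with summed intensities of 8.43, 5.64, 44.7 and 2.72. So did the sums of 4 measured of 7 intestinal epithelium markers, at 2.68, 1.16, 10.8 and 0.158, which chiefly follow 1 gene, Fabp1. Its mean log2 level in vehicle was 0.25, against -4.91 for Vil1, -5.29 for Fabp2 and -6.45 for Muc2. With each hormone 2 of the 4 were higher than vehicle, so the list did not move as a whole. Slc22a7, a carrier of organic anions that is high in liver, was also highest in vehicle animal 5, at -2.76 against -5.14 to -4.25 elsewhere, as was Slc38a3, a glutamine carrier of liver, at -2.82. Both were named after their values were seen, and they moved with the hepatocyte markers (r = 0.906 and 0.744). Among other carriers found in liver r was -0.604 for Slc2a2, a glucose carrier, -0.255 for Slc37a4, which moves glucose phosphate, and -0.067 for Slc27a2, of the fatty acid family. The part of liver RNA, or of the intestinal epithelium markers, in these values was not tested.

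**Figure D3:**
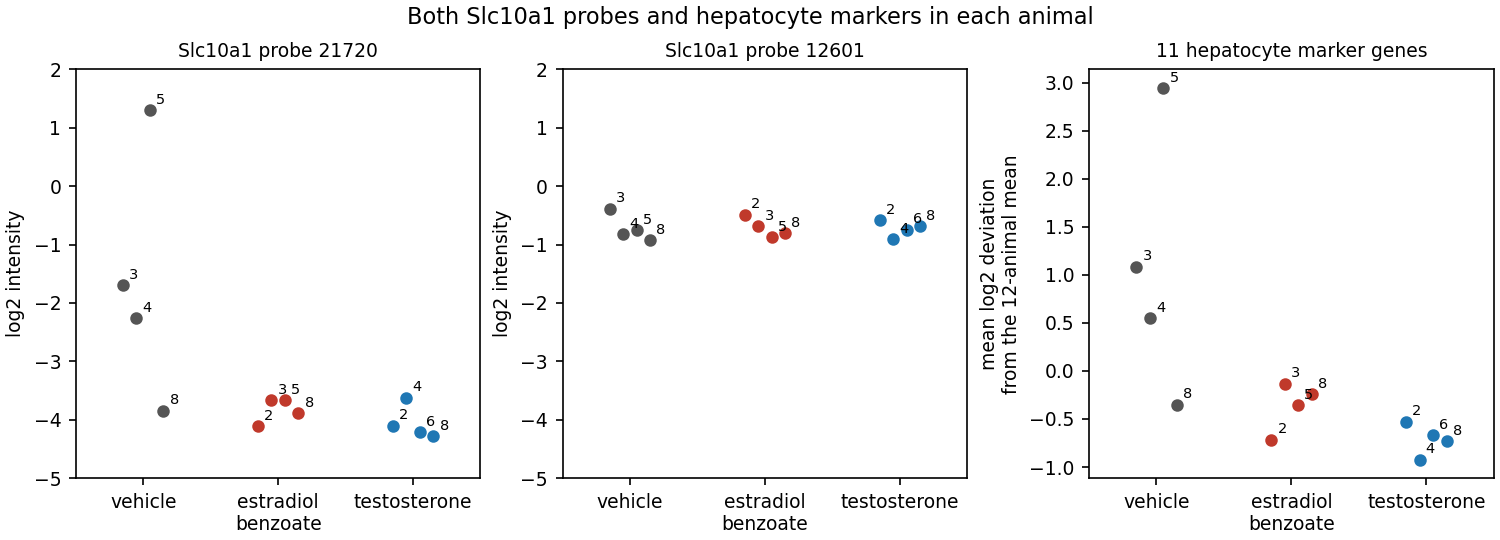
Left and middle, log2 intensity of the 2 Slc10a1 probes on one scale; right, mean log2 deviation of 11 hepatocyte markers from their 12-animal mean; each point is an animal with its number. Vehicle animal 5 is highest on the left and in the hepatocyte markers, and the other probe stays between -0.92 and -0.39.

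The bases before the start of a gene are shown for 3 members chosen after their values were seen, whose windows lie outside the annotated gene: Slc35a1, with the smallest p for testosterone minus vehicle, Slc29a1, whose estradiol benzoate animals lay below all others, and Slc10a1, whose probes disagreed. They are the 250 bases before the RefSeq start in the rat build GRCr8, on the gene's strand: Slc35a1 at chr5:54044678-54044927 (minus strand), Slc29a1 at chr9:22896849-22897098 (plus strand) and Slc10a1 at chr6:106357945-106358194 (minus strand). Capitals mark AGGTCA, the core motif bound by estrogen receptors and many other nuclear receptors.
Slc35a1: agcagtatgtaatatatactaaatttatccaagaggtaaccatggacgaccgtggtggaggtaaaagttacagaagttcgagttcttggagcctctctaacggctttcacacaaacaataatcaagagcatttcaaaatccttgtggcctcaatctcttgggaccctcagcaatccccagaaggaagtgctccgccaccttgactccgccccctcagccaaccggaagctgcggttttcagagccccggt
Slc29a1: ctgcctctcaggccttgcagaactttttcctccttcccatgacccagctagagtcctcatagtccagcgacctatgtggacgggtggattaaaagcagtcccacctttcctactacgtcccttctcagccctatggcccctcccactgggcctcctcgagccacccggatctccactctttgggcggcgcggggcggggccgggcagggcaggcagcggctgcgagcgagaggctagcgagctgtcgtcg
Slc10a1: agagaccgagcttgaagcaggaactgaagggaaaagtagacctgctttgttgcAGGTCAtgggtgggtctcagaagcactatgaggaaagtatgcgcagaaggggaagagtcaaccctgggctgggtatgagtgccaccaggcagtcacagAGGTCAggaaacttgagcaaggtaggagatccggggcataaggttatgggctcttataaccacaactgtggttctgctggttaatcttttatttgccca
AGGTCA, searched on both strands, occurred in the Slc10a1 window 197 to 192 and 99 to 94 bases before the start, and in neither of the others. It lay in 14.1% of 33469 RefSeq windows of this length and in 23 of the 148 windows of Slc genes (15.5%). The androgen and glucocorticoid core motif AGAACA lay in 17.5% of all windows and in 18 of the Slc windows (12.2%), none of them printed here. The full palindromic estrogen and androgen response elements (0.0239% and 0.012% of all windows), each of which holds a core or part of it, and the amino acid response element core (0.944%) lay in 0 of the Slc windows. The windows of Slc38a1 and Slc40a1 held none of these letters either. Both lie inside the annotated gene, before an alternative start, so they do not describe the bases before the whole gene and are not printed. A match describes letters in a window and is not evidence of binding.

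Mitochondrial carriers exchange metabolites, nucleotides and phosphate across the inner membrane. Of 17 genes, 14 were higher in sign than vehicle with estradiol benzoate (background 47.6%, and 57.6% of all Slc genes) and 12 with testosterone (background 47.7%, and 61.2% of all Slc genes). The class medians were 0.14 and 0.11, and 2 and 1 of them were higher at an unadjusted p under 0.05 (background 6.77% and 6.62%). Slc25a33, a carrier of pyrimidine nucleotides, was 0.36 ± 0.11 above vehicle with estradiol benzoate (adjusted p = 0.249), with groups that did not overlap, and 0.20 with testosterone. It moved with the brown adipocyte (r = 0.81) and pancreas markers (0.73), whose part was not tested. Slc25a10, the dicarboxylate carrier, gave 0.81 and 0.65 with overlapping groups, and the white adipocyte markers moved with it (r = 0.851), their part not being tested. Slc25a17, a family member of the peroxisome, was 0.51 ± 0.16 above vehicle with testosterone (adjusted p = 0.243): all 4 testosterone animals, at -0.68, -0.71, -0.77 and -0.79, lay above vehicle, at -1.35, -0.99, -1.61 and -1.02. With estradiol benzoate it gave 0.29. Slc25a17 moved against the hepatocyte markers (r = -0.816), whose part was not tested.

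**Figure D4:**
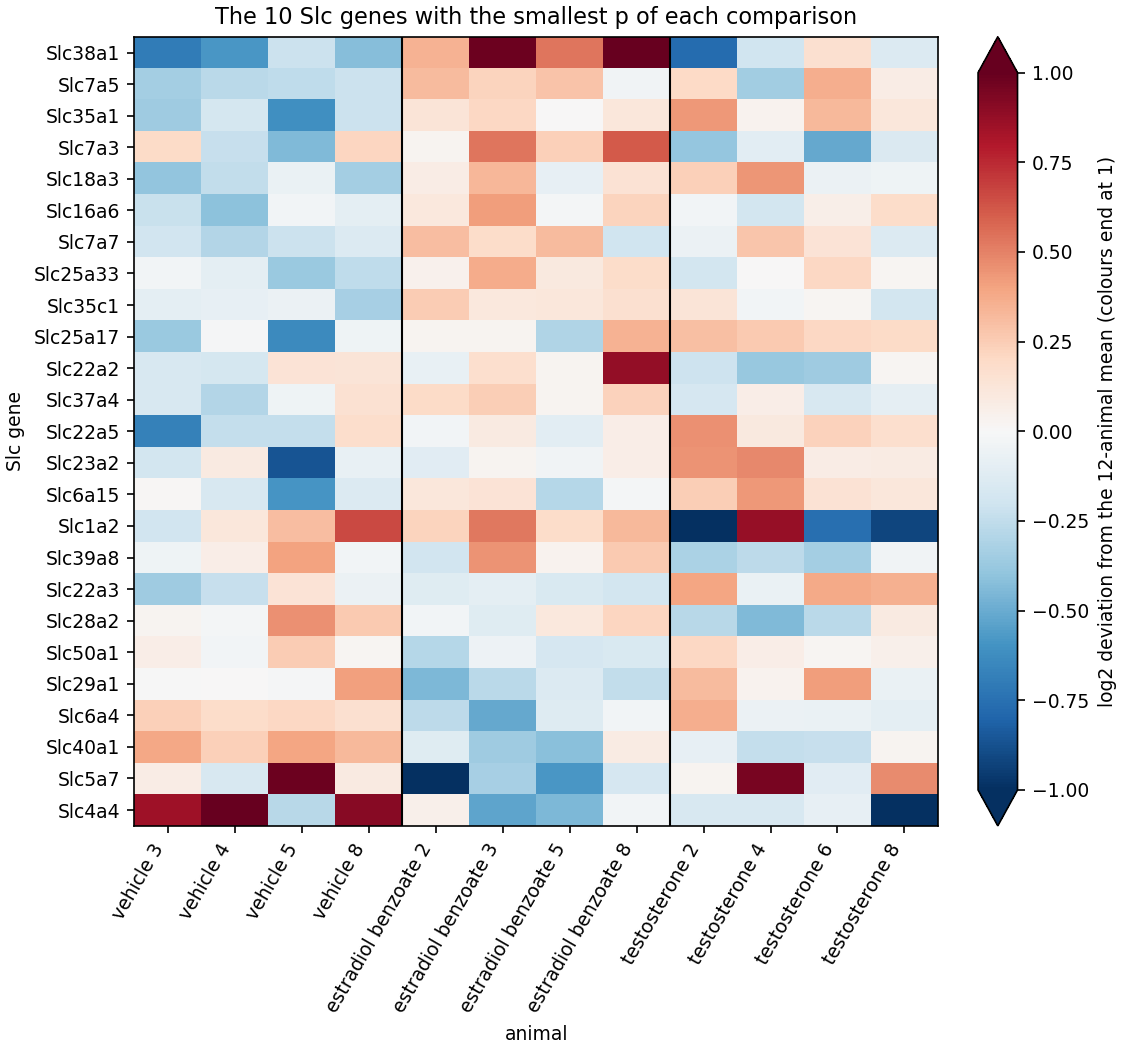
Log2 deviation of 25 Slc genes (rows, the union of the 10 with the smallest p in each comparison) from their mean over 12 animals (columns); red is above and blue below the mean, and colours end at 1. These genes were chosen for their differences, so the split by group is a description; Slc40a1 is above its mean in all vehicle animals and Slc38a1 in all estradiol benzoate animals.

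Sugar carriers of the Slc2, Slc37, Slc45 and Slc50 families had class medians of 0.21 and 0.06 over 12 genes. Slc50a1, a sugar carrier of the Golgi apparatus and cell surface, was lower with estradiol benzoate, by -0.24 ± 0.09 against vehicle and -0.25 against testosterone, and its estradiol benzoate animals did not overlap either group. Slc37a4, which moves glucose phosphate into the endoplasmic reticulum, was 0.26 above both other groups with estradiol benzoate. Slc2a1, the widespread glucose carrier, gave 0.35 and 0.16, the insulin-regulated Slc2a4 0.38 and 0.12, and Slc2a2 0.28 and 0.31. None of these passed the test. Among 6 carboxylate carriers the medians were 0.31 and 0.13. Slc16a6, of the monocarboxylate family, was 0.37 ± 0.12 above vehicle with estradiol benzoate with groups that did not overlap (adjusted p = 0.274), and it moved with the brown adipocyte markers (r = 0.82), whose part was not tested. Slc13a2, which carries citrate and succinate, gave 0.30 and 0.31, and the lactate carrier Slc16a1 0.38 and 0.12. Over all alternatives of processing or animals left out, Slc13a2 ranged from 0.10 to 0.51 with estradiol benzoate and from 0.16 to 0.38 with testosterone. The white adipocyte markers moved with Slc2a4 (r = 0.734) and Slc13a2 (0.73), and their part was not tested.

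Carriers of ions set the pH, calcium and volume of the vessel's cells. Slc4a4, a sodium bicarbonate cotransporter, read -2.13, -1.90, -3.25 and -2.06 in vehicle, -2.92, -3.50, -3.42 and -3.00 in estradiol benzoate and -3.14, -3.13, -3.06 and -4.18 in testosterone animals. The treated animals lay below vehicle animals 3, 4 and 8, while vehicle animal 5 lay among them. The differences were -0.88 ± 0.32 (adjusted p = 0.305) and -1.04 ± 0.32 (adjusted p = 0.243). Slc4a2 and Slc4a7, bicarbonate carriers of the same family, gave -0.16 and 0.24 with estradiol benzoate and -0.26 and 0.24 with testosterone. The sodium calcium exchanger Slc8a1 gave -0.18 and 0.07 on its brighter probe and -0.34 and -0.27 on the other, so that the probes differed in sign with testosterone. The chloride cotransporter Slc12a2 gave -0.06 and -0.08. Slc24a2, a potassium-dependent sodium calcium exchanger, gave 1.19 with testosterone, where animal 2 read -2.76 and the other 3 animals -5.24 each, and 0.57 without animal 2.

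Of 6 vesicular and organic anion carriers, 3 were higher than vehicle with testosterone at an unadjusted p under 0.05 (background 6.62%) and 1 with estradiol benzoate (background 6.77%), with medians of 0.44 and 0.19. They were Slc18a3, which loads acetylcholine into vesicles (0.41 with testosterone and 0.38 with estradiol benzoate), Slc17a7, which loads glutamate (0.57 with testosterone), and Slc32a1, which loads GABA and glycine (0.79 with testosterone). Over all alternatives of processing or animals left out, Slc18a3 ranged from 0.17 to 0.64 with testosterone and from 0.08 to 0.68 with estradiol benzoate. Vehicle animal 5 was lowest of all animals for Slc17a7, at -4.97, and for Slc32a1, at -6.08; without it they gave 0.32 and 0.52 with testosterone. With values at or below 0 set to the lowest positive value of the array, Slc32a1 gave -0.31, and on the scale of log2(value + 0.1) Slc17a7 gave 0.22. Slc17a7 moved against the hepatocyte markers (r = -0.784), and Slc18a3 with 4 measured of 6 sympathetic nerve markers (0.707). The part of these lists was not tested. Slc5a7, the choline carrier of cholinergic nerves, lay lower with estradiol benzoate than in both other groups, by -0.83 against vehicle and -0.91 against testosterone, at levels from -5.48 to -3.26. Among 12 carriers of urea, vitamins and other small solutes, 3 were higher with testosterone at an unadjusted p under 0.05 (background 6.62%): the vitamin C carriers Slc23a2 (0.53) and Slc23a1 (0.34, named after its values were seen) and the urea carrier Slc14a1 (0.25). Over all alternatives the difference of Slc14a1 ranged from 0.05 to 0.45. Without vehicle animal 5 Slc23a2 gave 0.33, and on the scale of log2(value + 0.1) it gave 0.12. It moved against the hepatocyte markers (r = -0.835), whose part was not tested.

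Slc44a1, a choline carrier with 3 probes that was named after its values were seen, showed how far probes of a gene can differ. Estradiol benzoate minus vehicle was -0.31 on the brightest, 0.07 on the next and -0.85 ± 0.19 on the dimmest (adjusted p = 0.14), whose groups did not overlap. Of 24 genes with several tested probes, the probes had the same sign in 13 for estradiol benzoate minus vehicle, in 18 for testosterone minus vehicle and in 18 between the hormones. In the remaining classes (chloride cotransport, fatty acids, peptides, phosphate and the genes that are not carriers) 0 of 17 genes had an unadjusted p under 0.05 in either comparison with vehicle (background 13.5% and 14%). The spread over animals of a group was similar for Slc probes and all probes, with a median SD of 0.198 against 0.196 on the log2 scale.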

How the data were processed

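Per the labels' protocols, artery cRNA was hybridised to one-colour CodeLink arrays, and the values the authors deposited are linear spot intensity. Array medians of 0.926 to 0.951 show that they were scaled; how they were scanned, corrected for background and scaled is not stated there. The number of animals limits the precision, and p-values measure the spread between them. Values at or below 0 (327, of which 7 on Slc probes) and blanks were treated as missing. Log2 values of an animal's 2 arrays were averaged (duplicate r 0.967 to 0.994 over Slc probes). With limma 3.58.1 (R 4.3.3), group means of the 12 animals were compared (9 residual and 2.51 prior degrees of freedom) in two-sided tests, adjusted by Benjamini-Hochberg over 10228 probes. In simulated data with 200 changed probes, 78% to 81% of log2 changes of 1 were found, and 8 to 12 unchanged probes were called. In the animals themselves the brightest probe of Slc38a1, at 1.2 for estradiol benzoate minus vehicle, was not called (adjusted p = 0.122 in limma's test). The share of changes of this size that would be found in the animals was not tested.

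Genes were named from the platform annotation, and all 195 Slc probes matched RefSeq by gene ID. For a gene with several probes, the one with the highest mean stood for it. Members, classes, marker lists and alternatives were chosen with earlier results of these data known. Eligible to be named were Slc38a1, Slc40a1 and Slc10a1, the 10 genes with the smallest p of each comparison, the 3 with the smallest F-test p of a class, transporters with a textbook role in arteries, genes that single out 1 animal, and genes that followed Slc38a1. Others are marked in the text as named after their values were seen. Not every eligible gene is described above. Differences from vehicle not given there include, with estradiol benzoate and testosterone, those of Slc9a3 (0.61 and 0.54), Slc4a10 (-0.07 and 1.00) and Slc6a6 (0.01 and 0.16). The probes of Slc2a3 gave 0.30 and 0.31 on the brighter and -0.20 and -0.26 on the other.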

Additional observations from a re-analysis of the deposited data

Results flagged for a closer look

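In 14 of 264 groups of 4 animals (5.3%), 1 animal lay apart from the other 3 by more than Dixon's 95% limit, and chance gives about 1 in 20. In vehicle, animal 4 was high for Slc27a1 (2.63), animal 8 was high for Slc29a1 (-1.22) and low for Slc35c1 (-0.11), and animal 5 was high for Slc4a10 (-1.11). In estradiol benzoate, animal 2 was high for the brighter probe of Slc11a2 (0.37) and low for the dimmest probe of Slc38a1 (-4.21), animal 3 was low for Slc13a2 (-3.29), and animal 5 was high for Slc15a4 (0.91) and Slc2a3 (-1.17). In testosterone, animal 2 was high for Slc24a2 (-2.76) and Slc6a4 (1.14), animal 4 was low for Slc22a3 (1.49), and animal 8 was low for Slc4a4 (-4.18) and for the dimmer probe of Slc11a2 (-4.77).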

How the results depend on the processing

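No Slc probe was called under any alternative, in any comparison. Of 240 differences of named probes 60 had an unadjusted p under 0.05, and 59 of these kept their sign throughout; the other, Slc32a1 for testosterone minus vehicle, was -0.31 with values at or below 0 set to the lowest positive value of the array. Counts below are of all probes called, or of Slc probes at an unadjusted p under 0.05, unless said otherwise. Groups of fewer animals separate more easily, so a higher count of non-overlap with animals left out is not a result about Slc probes. The share over all probes was not counted for these alternatives. For testosterone minus vehicle, called probes numbered 8 with quantile normalization, 2 among probes above a log2 level of -2, 3 on the AA arrays, 1 with only the groups compared, 0 with the replicate block and 29 without both doubted animals (estradiol benzoate 3 and vehicle 5); higher Slc probes numbered 10 above -2, 10 with the replicate block and 12 without both animals, and lower ones 14 with quantile normalization. For estradiol benzoate minus vehicle, called probes numbered 3 above -2, 1 on the AA arrays and 3 with a trended robust prior; higher Slc probes numbered 11 above -2 and 10 without both animals, and non-overlapping ones 11 and 32 (counts of non-overlap were added after the data were seen). Between the hormones, called probes numbered 0 with quantile normalization, on the AB arrays, with only the groups compared, with the replicate block and without both animals, and 1 on the AA arrays; higher Slc probes numbered 5 above -2, 4 on the AB arrays and 5 without both animals, and non-overlapping ones 4 above -2. With all probes of a gene averaged, the median of the bile acid and organic ion class was -0.10 with estradiol benzoate and -0.11 with testosterone, and that of sugars 0.10 with estradiol benzoate. Leaving out 1 animal at a time, higher Slc probes ranged from 11 to 24, 13 to 24 and 3 to 8 (estradiol benzoate minus vehicle, testosterone minus vehicle and between the hormones), lower ones from 7 to 17, 8 to 17 and 6 to 10, non-overlapping ones from 17 to 35, 12 to 23 and 10 to 20, and called probes from 0 to 2, 0 to 45 (45 without vehicle animal 5) and 0 to 1. The counts moved by over 1.5 times without estradiol benzoate animal 3 (11 higher against vehicle), 2 (7 lower) or 8 (3 higher against testosterone), testosterone animal 2 (13 higher against vehicle) or 6 (3 higher in estradiol benzoate), and vehicle animal 8 (17 lower with testosterone), among others. For same-numbered animals of different groups the deviations had r from -0.115 to 0.297 in 7 pairs (median 0.043, 2 of them over 0.1). For other pairs r was -0.278 to 0.239 in 41 pairs (median -0.02, 5 of them over 0.1). So few pairs do not settle whether same-numbered animals deviate together, and the block rests on a number only. Dim probes limit the precision: 33.9% of Slc probes lay below a log2 level of -2, against 26.9% of all.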
